A study of Mus with 2 samples.

Results

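The genes described here are 10 transcription factors of the AP-1 and EGR families, measured in mouse bone marrow derived macrophages (BMDMs) with and without the FXR agonist GW4064. They are Fos, Fosb, Fosl1 and Fosl2 of the FOS family, Jun, Junb and Jund of the JUN family, Atf3 of the ATF family, and Egr1 and Egr3 of the EGR family. The members were listed by name for their family, with earlier results of these data known, and were found through the RefSeq transcript to which each probe is assigned. All 10 had a probe, among 20060 genes named on the array, and 9 of the 10 gave a signal well above background. The exception was Egr3.

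AP-1 is a dimer of bZIP proteins, which grip each other through a leucine zipper and contact DNA with the basic stretch beside it. A FOS protein pairs with a JUN protein, JUN proteins also pair among themselves, and ATF3 can join them or act as a repressor. Many genes of these families are immediate early genes: growth factors, stress or microbial products switch them on within minutes through kinases and factors already present in the cell, and their transcripts are soon lost again. EGR proteins are zinc finger factors switched on in the same manner. In macrophages these factors serve the response to M-CSF, to IL-4 and to inflammatory stimuli, and a sample taken after 24 h is read long after the early burst.

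Both cultures came from bone marrow of male C57BL6/J mice aged 10 weeks and were grown for 7 d with 10 ng/mL of M-CSF. Both then received IL-4 at 10 ng/mL for 24 h, which polarizes BMDMs toward M2 macrophages. The DMSO culture received the solvent during this time, and the GW4064 culture received 10 µM of GW4064 in DMSO. RNA of each culture was read on 1 Agilent 1-colour array, both on 1 slide. There are no genetic changes, no untreated culture and no earlier time point among these arrays, and the number of mice behind each culture is not given in the sources used here. With 1 array per condition there was no replicate error and no test, and precision is limited by the number of arrays. Differences are GW4064 minus DMSO on the log2 scale, after the 75th percentile of each array was set to 0. It lay at a signal of 1209 with DMSO and of 1265 with GW4064, so equal raw signals stand for a slightly lower scaled level with GW4064.

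The label BMDM was checked against 8 macrophage markers. The 7 with a matched probe were well above background on both arrays, with differences between -0.34 for Mrc1 and 0.089 for Itgam. Stromal cell markers were lower with GW4064 in 7 of 8 measured genes, from Pdgfra (0.065) to Col1a2 (-0.99), with a median of -0.74, and their summed scaled signal was 21041 with DMSO and 11241 with GW4064. Neutrophil markers were lower in 6 of 6, from Camp (-0.32) to Mpo (-0.94), with a median of -0.64 and summed scaled signals of 11343 and 7015. Among dendritic cell markers Xcr1 and Clec9a were not well above background on either array. Only 1 of the 2 Siglech probes counted as measured, so the probes disagree on whether its transcript was present. The measured probe was bright, with signals of 36736 and 37360 and a difference of -0.041. The other 3 dendritic cell markers were dim. Zbtb46 had 0.44, with signals of 29.8 and 39.4 for its brighter probe, and Ccr7 had -0.60, with 32.9 and 22.7. Flt3 was at least 4.94-fold higher at a signal of 81.5, read from the only measured of its 2 probes. Flt3 and Zbtb46 each had a spot in a damaged area as defined below. Among T and B cell markers 4 of 7, Cd79a with them, and among mast cell and basophil markers 4 of 5 were not well above background. Cd3e had 0.18, Cd4 had -0.15 at the only measured of its 2 probes, and Ms4a1 was at least 2.47-fold lower from a signal of 35.8. In RNA from a whole culture, fewer cells of a type and less RNA per cell cannot be told apart.

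None of the 9 measured factors differed 2-fold between the arrays. Over all 13533 measured genes 2.04% were 2-fold or more higher with GW4064 and 2.71% were lower, together 4.75%. With only probes well above background on both arrays, as those of all 9 factors were, 2.15% of 12578 genes were past 2-fold. Without damaged areas, defined below, the share was 3.22% of 11506 genes. At a lower limit of 1.5-fold, 9.95% of all genes were past it in either direction and again 0 of the 9 factors. The largest difference was 1.31-fold. Fos was 1.31-fold lower, Fosl1 was 1.31-fold higher and Egr1 was 1.25-fold higher on the GW4064 array, whereas Jun, Junb, Jund, Atf3 and Fosl2 lay within 0.1 of 0 on the log2 scale, as did 41.9% of all genes. The median of the 9 factors was -0.042, with 3 higher and 6 lower, against a median of 0.0069 over all genes, of which 51.6% were higher.

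**Figure D1:**
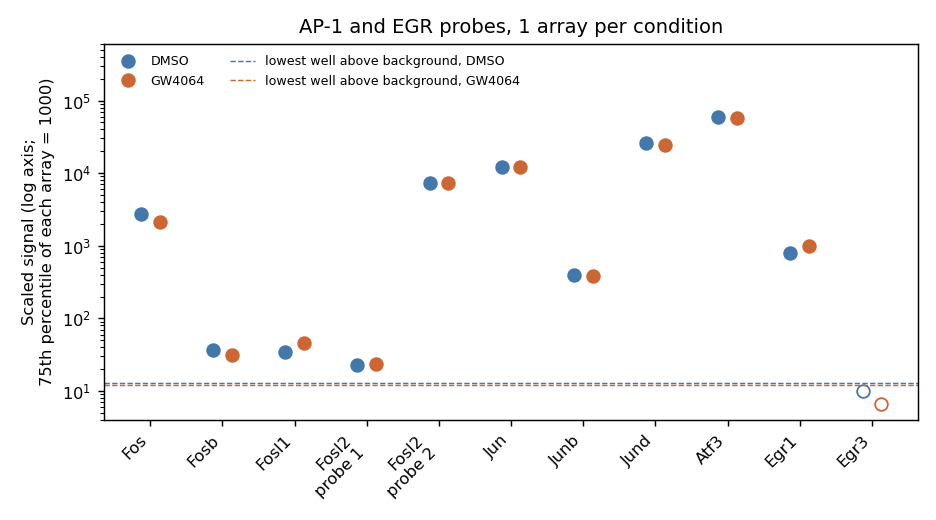
Scaled signal of each probe for the 10 genes with DMSO (blue) and GW4064 (orange), on a log axis on which 1000 is the 75th percentile of each array. Dashed lines mark the lowest signal well above background, and open circles mark Egr3, which lay below them on both arrays. Probes differ in how well they bind, so only the pair of points of 1 probe can be compared, and in each filled pair the points lie close together.

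**Figure D2:**
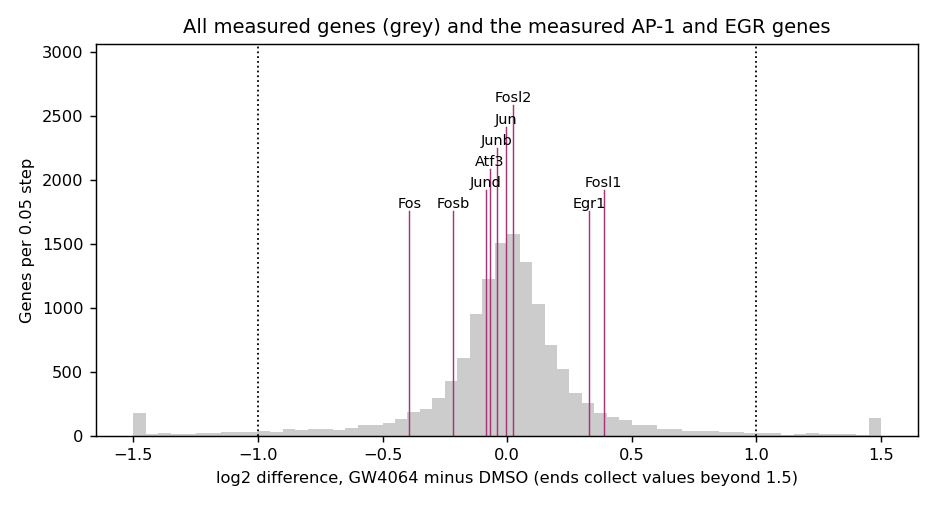
Number of genes per step of 0.05 in the log2 difference, GW4064 minus DMSO, over 13533 measured genes (grey), with the 9 measured AP-1 and EGR genes as labelled lines and the 2-fold limits as dotted lines. Jund, Atf3, Junb, Jun and Fosl2 stand in the centre, Fos and Fosb to the left of it and Egr1 and Fosl1 to the right.

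Fos encodes c-FOS, the founding FOS protein and a textbook immediate early gene. It was the best measured of the members, since its probe, assigned to NM_010234, was printed at 10 spots on each array. The signal on the DMSO array ran from 2883 to 3483 with a median of 3420. On the GW4064 array it ran from 2487 to 2782 with a median of 2717. The ranges did not overlap: the dimmest DMSO spot was brighter than the brightest GW4064 spot. How many other probes printed at 10 spots separate in this way was not counted. Batf, with a smaller difference of -0.15, was also lower at all 10 of its spots. The log2 difference was -0.39 with an SD of 0.096 over the 10 spots, and it was negative at each of them, from -0.54 to -0.19. These spots share 1 RNA sample per condition, so their SD describes the reading of the array and not the spread between cultures. Of all genes 8.50% had a difference below that of Fos. Of 234 probes printed at 10 spots and well above background throughout, that of Fos among them, 19 had a mean difference at or below that of Fos, counting Fos itself. Large differences between single spots cluster in some areas of this slide, called damaged areas here where 2 or more other spots within 300 µm differ 8-fold or more. Of the Fos spots 2 lay in such areas, and without damaged areas the difference was -0.40.

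**Figure D3:**
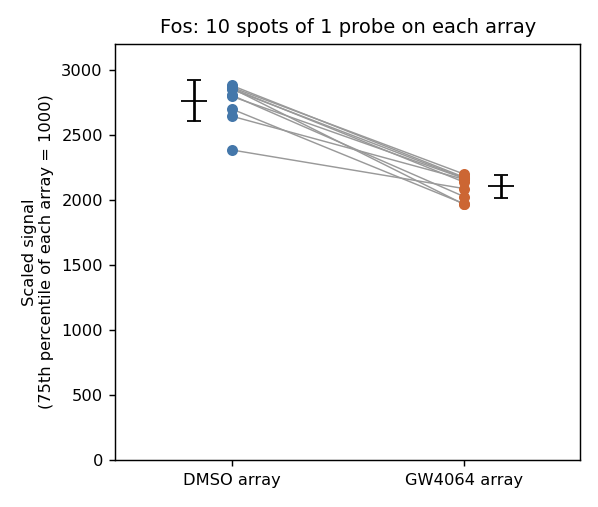
Scaled signal of the 10 spots of the Fos probe on each array, with 1000 as the 75th percentile of each array, grey lines between spots at the same place in the layout, and black marks for mean and SD over spots. All 10 lines run downwards, from 2385 to 2881 on the DMSO array and from 1966 to 2199 on the GW4064 array.

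The other members were each read at 1 spot per probe. The repeated probes give a measure for such readings: among them the SD of the log2 difference over copies had a median of 0.17 at signals of 15 to 100, 0.092 at 100 to 1000, 0.072 at 1000 to 10000 and 0.070 above 10000. Its 90th percentile was 0.27, 0.18, 0.11 and 0.11 in the same order. Over all genes the 25th and 75th percentiles of the difference itself were -0.12 and 0.13, so a difference past 0.11 was common. The share of all probes past the 90th percentile of copy SDs was not counted, so the counts for the members have no such share beside them. Of the 10 probes for the 9 factors, 3 differed by more than this 90th percentile, namely those of Fos, Fosl1 and Egr1. A further 5 differed by no more than the median copy SD. The scanner software attaches a larger error to each spot, which gives 0.20 for the difference of a bright probe and 0.25 for that of Fosl1. Both measures describe the arrays and leave out the spread between cultures.

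Fosb, a close relative of Fos that is also induced as an immediate early gene, was dim. Its signal was 44.1 with DMSO and 39.7 with GW4064, a difference of -0.22, between the median and the 90th percentile of the copy SDs at this brightness. Fosl1 encodes FRA1, a FOS protein that lacks the strong activation domain of c-FOS and follows it later in many cells. Its signal was 42.1 with DMSO and 57.6 with GW4064, a difference of 0.39, and 92.2% of all genes lay below it. This was the largest increase among the members, at a signal close to background. With a normexp correction of the background, which draws dim signals together, it was 0.11. Fosl2 encodes FRA2 and had 2 probes, both assigned to NM_008037. The first gave 27.2 and 29.5 with DMSO and GW4064, a difference of 0.054. The second gave 8917 and 9286, a difference of -0.0073. The probes were far apart in brightness and alike in showing a difference smaller than the median SD of copies.

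The JUN family was nearly equal on both arrays. Jun, a partner of FOS in AP-1, had a signal of 14624 with DMSO and 15259 with GW4064, a difference of -0.0044 after scaling, and 97.7% of all genes differed by as much or more. Junb, which can restrain JUN at some promoters and drives transcription at others, had 472 and 480, a difference of -0.042. Jund, the member of the family that many resting cells express steadily, had 31270 and 30855, a difference of -0.085. For Jun and Junb the difference was smaller than the median SD of copies at the same brightness, and for Jund it lay between this median and the 90th percentile. For none of the 3 genes did it reach the software's error of 0.20.

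Atf3, a stress-induced bZIP factor that limits inflammatory transcription in macrophages, had a signal of 72595 with DMSO and 72415 with GW4064. The difference was -0.069, just within the median copy SD of 0.070 at such signals. In contrast, Egr1, which macrophages induce in response to M-CSF and other stimuli, had a signal of 964 with DMSO and 1266 with GW4064. The difference was 0.33, or 1.25-fold, above the 90th percentile of copy SDs, and 90.4% of all genes lay below it. The Egr1 spot had 0 spots that differed 8-fold or more within 300 µm, and the median difference of the other spots within 5 rows and columns was -0.15. Egr3, a related factor known best from lymphocytes and neurons, had signals of 11.9 and 8.50. Neither was well above background, for which the lowest signals were 15.7 and 15.1. No direction is given for Egr3. Its spot had 2 large differences near it, and it was the only member apart from Fos with a spot in a damaged area.

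**Figure D4:**
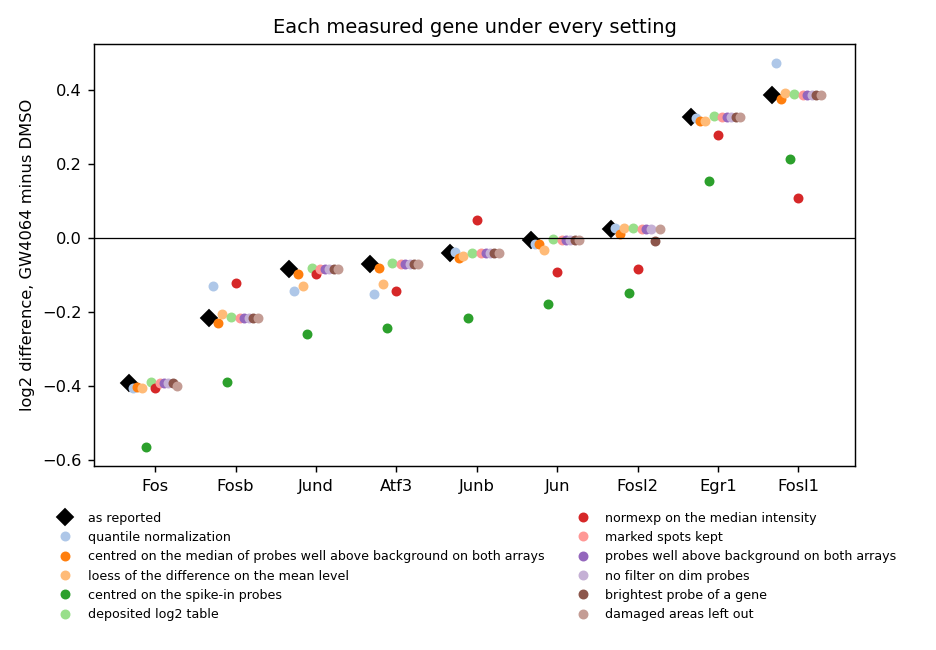
The log2 difference, GW4064 minus DMSO, of each measured gene as reported (black diamonds) and under the 11 other settings of scaling, background, filter and probe choice (coloured circles). Fos, Fosb, Jund, Atf3 and Jun lie below 0 and Egr1 and Fosl1 above 0 throughout, whereas Junb and Fosl2 cross it.

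The scaling decides where the centre lies. When the spike-in probes, and not the 75th percentile, were set equal on both arrays, the median of all measured genes was -0.17. The median of the 9 factors was then -0.22, with 2 higher and 7 lower, and relative to all genes they lay close to where they had lain before. Under this centring Fos had -0.57, Egr1 0.15 and Fosl1 0.21. Junb had 0.047 with normexp, and Fosl2 was below 0 with normexp, with the spike-in centring and with its brightest probe alone.

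Partners of the AP-1 proteins were described from a list of 15 bZIP factors, of which 14 were measured. Of these 8 were higher, 6 were lower and 0 differed 2-fold, with a median of 0.010. The highest was Jdp2, a repressor that binds JUN proteins and takes part in osteoclast formation, with signals of 566 and 860 and a difference of 0.54. The lowest was Batf, a partner of JUN proteins in lymphocytes and dendritic cells, with -0.15. Its probe was printed 10 times and had an SD of 0.063 over the spots, each of them below 0. The 3 probes of Crem, a cAMP-responsive factor, disagreed and ran from -0.21 to 1.35. Its mean of 0.35 became -0.080 without damaged areas, in which 2 of its 3 spots lay, and Crem was chosen for this after its values were seen.

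Other immediate early genes were taken from a list of 34, of which 32 were measured. Of these 13 were higher and 19 were lower, with a median of -0.039. Only Ccn1, which encodes the matricellular protein CYR61, was past 2-fold, 1 of the 32 beside 4.75% of all genes. It had signals of 697 and 361 and a difference of -1.02, or 2.02-fold lower, close to the limit. With normexp 0 genes of this list were past 2-fold. The highest gene measured on both arrays was Plk2, a kinase of the polo family, with 0.40 at 1 spot in a damaged area. Some further genes were chosen after their values were seen. Ccn2, a relative of Ccn1, had signals of 5425 and 2906 and a difference of -0.97. Nr4a1, an orphan nuclear receptor, had -0.81 at 1 spot in a damaged area. Dusp1, a phosphatase that turns off MAP kinases, had -0.60, and the 2 probes of Trib1 had -0.62 and -0.55. The Trib1 probe at -0.62 lay in a damaged area. Egr2, the EGR factor that IL-4 induces in macrophages, had signals of 32600.4 and 31527 and a difference of -0.11. Egr4 and Nr4a3 were not well above background. The stromal cell markers Col1a2 (-0.99) and Dcn (-0.88) had differences of a size near those of Ccn1 and Ccn2, and the part of other cells in these differences was not tested.

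**Figure D5:**
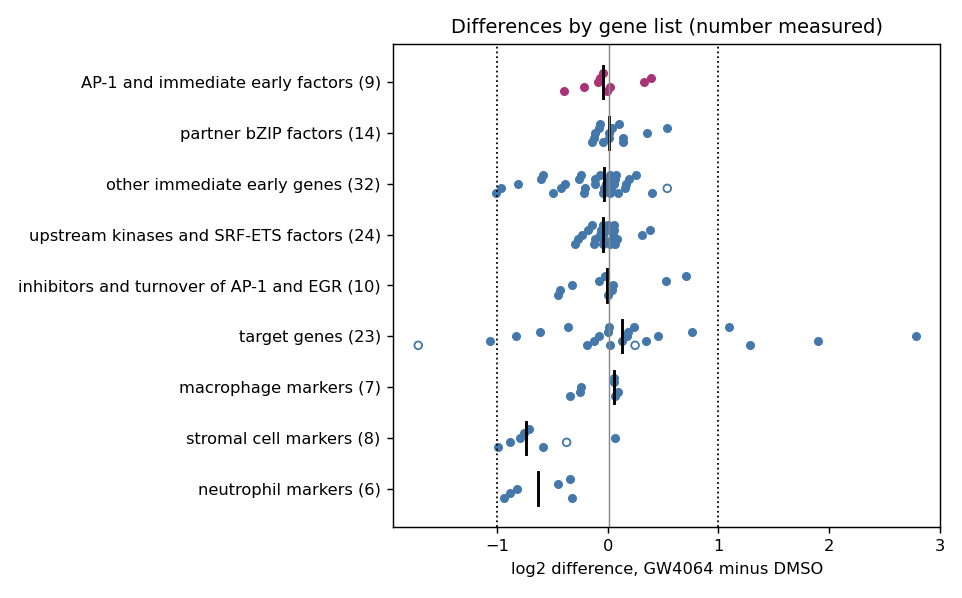
The log2 difference, GW4064 minus DMSO, of each measured gene by list, with the number measured in brackets. Black bars are list medians, the grey line is the median of all genes, dotted lines are the 2-fold limits, and open circles are genes that 1 array did not measure well above background. AP-1 and EGR genes, their partners and their kinases lie close to 0, target genes spread to both sides, and stromal cell and neutrophil markers lie mostly to the left.

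Upstream of these factors stand the MAP kinase cascades and the complex of serum response factor (SRF) with ETS proteins. All 24 genes of this list were measured, 9 higher and 15 lower, with a median of -0.043 and 0 past 2-fold. The lowest was Mapk3, which encodes ERK1, with probes at -0.32 and -0.27. The highest was Mapk8, which encodes JNK1, with 0.38. Its measured probes disagreed, at -0.16 and 0.91, and both were dim. The brighter, at -0.16, had signals of 46.6 with DMSO and 43.7 with GW4064. Of 11 inhibitors and turnover factors, 10 were measured, 5 higher and 5 lower, with a median of -0.011. The highest was Dusp16, a phosphatase acting on JNK, whose probes had 0.0018 and 1.42. The second of these lay in a damaged area. The lowest was Dusp10, a phosphatase of p38 and JNK, with -0.45 at 1 dim spot in a damaged area. None of the 10 differed 2-fold, and Nab1 and Nab2, the co-repressors of EGR factors, had 0.051 and -0.077.

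The differences of target genes ran from -1.71 to 2.78. Of 24 genes with known AP-1 or EGR sites in their control regions 23 were measured, 15 higher and 8 lower, with a median of 0.13. Past 2-fold were 6 of the 23, of which 4 were higher and 2 lower, beside 4.75% of all genes. Mmp9, a gelatinase, was read at 10 spots and differed by 2.78 (SD 0.11 between spots). Il1b, the inflammatory cytokine, was dim, with signals of 20.6 and 80.9, and had 1.90, or 1.93 with an SD of 0.20 over the 7 spots left on both arrays. It had 1.87 without damaged areas, in which 3 of its 10 spots lay. Vegfa, the angiogenic factor, had probes at 1.38 and 1.18. Ccl2, the monocyte chemokine, had 1.09 with an SD of 0.056 over 10 spots. Mmp3, which encodes stromelysin, had a signal of 47.4 with DMSO, was not well above background with GW4064 and was at least 3.28-fold lower. Tnf, read at 10 spots as well, differed by 0.0014 (SD 0.045). The target list was set by known binding sites in general, but with earlier results of these data known. Its share past 2-fold is therefore a description and not a test. Whether AP-1 or EGR proteins bound these genes here was not measured. Protein levels and phosphorylation, through which AP-1 activity is also set, were not measured on these arrays.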

How the data were processed

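RNA of 1 DMSO culture and 1 GW4064 culture was analysed. The deposited spot intensities came from Agilent Feature Extraction 10.7.1.1, background subtracted and evened within the array, with no scaling between arrays. The column difference of the deposited log2 table (column medians 0.035 for DMSO and -0.051 for GW4064) matched the one computed here within 0.001, after a constant of 0.0022, for 39200 of 39200 probes. Its scale and direction are thus those used here, and the baseline on which its probes were centred is unknown.

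Here log2 of the processed intensity minus its 75th percentile over 43020 non-control spots was used. Spots marked non-uniform or outlying (399 and 207) were dropped, and copies of a probe were averaged. A probe was measured where at least 50% of its spots were well above background, which held for 57.4% and 58.5% of probes. A probe measured on 1 array only was held on the other at its own value or at the lowest signal well above background there, whichever was higher. Gene values are means over measured probes. Symbols from RefSeq transcripts of GRCm38.p6 matched 26445 probes. The array was designed on another build, so no coordinates are given. The members and lists were chosen with earlier results of these data known.

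Named genes were all members and, of each list, those past 2-fold and the highest and lowest measured on both arrays, apart from a few genes that are counted in their list and not reported here by name. Some genes outside this rule were named too. Among them are Tnf, Nab1 and Nab2, and those said above to be chosen after their values were seen. With 2 arrays no gene was named by likeness of pattern. Alternatives were quantile, median, loess (span 0.3) and spike-in scaling, the deposited table, normexp on median intensity (offset 50), other filters and thresholds, the brightest probe, and leaving out damaged areas. Promoter motifs were not analysed here. The calculation was tested on simulated data. Software was R 4.3.3 with limma 3.58.1, and Python 3.11.15 with numpy 2.4.6, scipy 1.17.1, pandas 2.3.3, matplotlib 3.10.9 and statsmodels 0.14.6.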

Additional observations from a re-analysis of the deposited data

How the results depend on the processing

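No paired analysis was possible because DMSO and GW4064 were each read on 1 array, and for this reason no array could be left out. The number of AP-1 and EGR genes past 2-fold was 0 under each of the 11 other settings and at thresholds of 1.5-fold and 4-fold. The 4-fold count follows from the 2-fold count. Keeping marked spots, or using only probes measured on both arrays, left the value of each measured member unchanged, so these settings could not alter the count. The median of the members stayed within 0.077, the median SD of copies, of -0.042 except with the spike-in centring, which gave -0.22. That centring moved every probe measured on both arrays down by the same amount. It gave list medians of -0.16 for partner bZIP factors, -0.21 for other immediate early genes, -0.22 for upstream kinases, -0.18 for inhibitors and -0.048 for target genes, with 2 immediate early genes past 2-fold in place of 1. With normexp the number past 2-fold was 0 of the immediate early genes and 3 of the target genes, and the target median was 0.027; an offset of 50 draws dim signals together by construction. Over all genes, 643 were past 2-fold (42.9% of them higher), 721 with the spike-in centring (30.2% higher), 136 with normexp (52.9% higher), 271 among probes measured on both arrays, 1465 without a filter and 370 without damaged areas. Without a filter Egr3 had -0.56, from signals below the limit on both arrays. Brightness limits Fosb, Fosl1, Egr3 and the first Fosl2 probe most.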
